A study of Rattus norvegicus with 24 samples.

Results

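The dopamine receptors are a family of 5 genes, Drd1 to Drd5, out of 37403 genes in each of the deposited tables. They were taken by symbol, and each of the 5 symbols was found in both tables. Receptors of the D1-like class, encoded by Drd1 and Drd5, couple to stimulatory G proteins and raise cyclic AMP. Receptors of the D2-like class, encoded by Drd2, Drd3 and Drd4, couple to inhibitory G proteins and lower it. In the nucleus accumbens (NAC), a part of the ventral striatum, D1 and D2 receptors sit mainly on separate medium spiny neurons, the direct and indirect pathway projection neurons, where they receive dopamine. In the ventral tegmental area (VTA), the D2 receptor is carried by the dopamine neurons themselves, as an autoreceptor that slows their firing and dopamine release.

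RNA came from bilateral punches of NAC and VTA of F1 rats, at postnatal day 60 or later and labelled male. Their fathers had self-administered morphine (MOR-sired) or saline (SAL-sired) over 60 days. Of the 24 libraries, NAC had 7 in each sire group and VTA had 5 in each. The labels name neither strain, animal nor litter, so the spread behind each p-value is that of the libraries, called biological replicates in the labels. A fall in the number of cells of a type cannot be told apart, in a punch, from less RNA per cell.

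The punches carried the transcripts of their region. The 17 medium spiny neuron markers summed to 1404 to 10741 CPM (counts per 1e6 counts) in NAC and 495 to 658 CPM in VTA. The 16 dopamine neuron markers summed to 72.9 to 127 CPM in NAC and 4176 to 9247 CPM in VTA. Detection alone did not separate the regions. All 17 medium spiny neuron markers averaged at least 1 CPM in both, and the dopamine neuron markers did so for 16 in VTA and 8 in NAC. The NAC punches varied in content. Beside the wide range of their medium spiny neuron sums, the summed markers of cortical glutamatergic neurons ran from 184 to 1995 CPM. In VTA, 4 libraries went against their labelled sex. SAL-sired VTA 5 and MOR-sired VTA 3, 4 and 5 held the X-inactivation transcript Xist at 78.9 to 108 CPM and the Y-linked Ddx3y at no more than 0.0720 CPM. These libraries are marked as those with Xist, and the VTA fits of the receptors, their ratios, the downstream lists and the marker sums are also given without them. Drd2 was 143 to 189 CPM in those 4 and 80.2 to 148 CPM in the other 6.

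Windows at the annotated gene start are shown for Drd1, Drd2 and Drd5. Drd1 and Drd2 rose and fell together across NAC punches while Drd5 ran the other way. Each window holds 250 bases before and 50 after the start of the gene in RefSeq, assembly GRCr8, and is written 5′ to 3′ on the strand of the gene. The windows lie at chr17:10546354-10546653 on the plus strand for Drd1, chr8:58605153-58605452 on the plus strand for Drd2 and chr14:76703295-76703594 on the minus strand for Drd5. Capitals mark the GC box, GGGCGG or its reverse complement CCGCCC, a letter pattern that the Sp1 family of factors can bind.
Drd1: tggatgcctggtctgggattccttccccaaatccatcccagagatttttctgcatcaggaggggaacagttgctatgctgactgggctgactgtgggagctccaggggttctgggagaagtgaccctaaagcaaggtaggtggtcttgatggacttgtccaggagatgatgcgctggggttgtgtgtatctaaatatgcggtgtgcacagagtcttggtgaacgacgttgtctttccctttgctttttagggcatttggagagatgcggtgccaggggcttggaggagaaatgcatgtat
Drd2: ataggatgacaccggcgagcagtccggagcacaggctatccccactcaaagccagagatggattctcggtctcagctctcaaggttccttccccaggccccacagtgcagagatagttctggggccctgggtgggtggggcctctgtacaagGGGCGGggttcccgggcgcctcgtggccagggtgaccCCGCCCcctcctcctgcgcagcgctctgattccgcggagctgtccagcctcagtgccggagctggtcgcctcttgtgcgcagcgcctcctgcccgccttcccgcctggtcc
Drd5: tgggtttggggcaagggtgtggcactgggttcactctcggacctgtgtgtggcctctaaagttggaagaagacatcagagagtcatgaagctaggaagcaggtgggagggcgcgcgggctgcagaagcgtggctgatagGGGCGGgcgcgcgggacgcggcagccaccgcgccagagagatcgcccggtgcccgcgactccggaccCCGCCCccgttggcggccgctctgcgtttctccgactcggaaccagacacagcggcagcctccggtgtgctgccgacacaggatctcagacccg
The Drd2 window held 2 GC boxes, at -98 and -61 from the start, and the Drd5 window held 2, at -111 and -44, in each case 1 on either strand. Drd1 had none in its window, nor had Drd3, and the 2 in the Drd4 window overlapped. Directly before the annotated start, the Drd1 window reads tttgctttttag, a letter pattern typical of the end of an intron. That window may therefore lie inside the gene and not hold the Drd1 promoter, which was not tested. Among all 33469 RefSeq gene-start windows of this length, 33.1% held a GC box on either strand. Neither TATAAA, found in 14.2% of windows on either strand, nor the cyclic AMP response element TGACGTCA, found in 1.83%, was present in any of the 5 receptor windows. CG dinucleotides numbered 5 for Drd1, 19 for Drd2, 2 for Drd3, 10 for Drd4 and 29 for Drd5, against a median of 7 over all windows. The windows of Drd1 and Drd2 differed in both features, and those of Drd2 and Drd5 were alike in number of GC boxes. This compares windows at annotated starts, and whether the promoters differ in the same way cannot be read from it. These are counts of letters, and no binding was measured. The part of these features in the levels across punches was not tested.

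The deposited values are abundances already divided by transcript length, so levels can be compared between genes. In NAC, Drd1 and Drd2 were the abundant receptors, Drd3 and Drd5 were on average more than an order of magnitude lower, and Drd4 was at the edge of detection. In VTA, Drd2 was the abundant receptor and the others were near or below 1 CPM on average, apart from Drd1 at 1.47 ± 0.170 CPM (SD, n = 10).

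**Figure D1:**
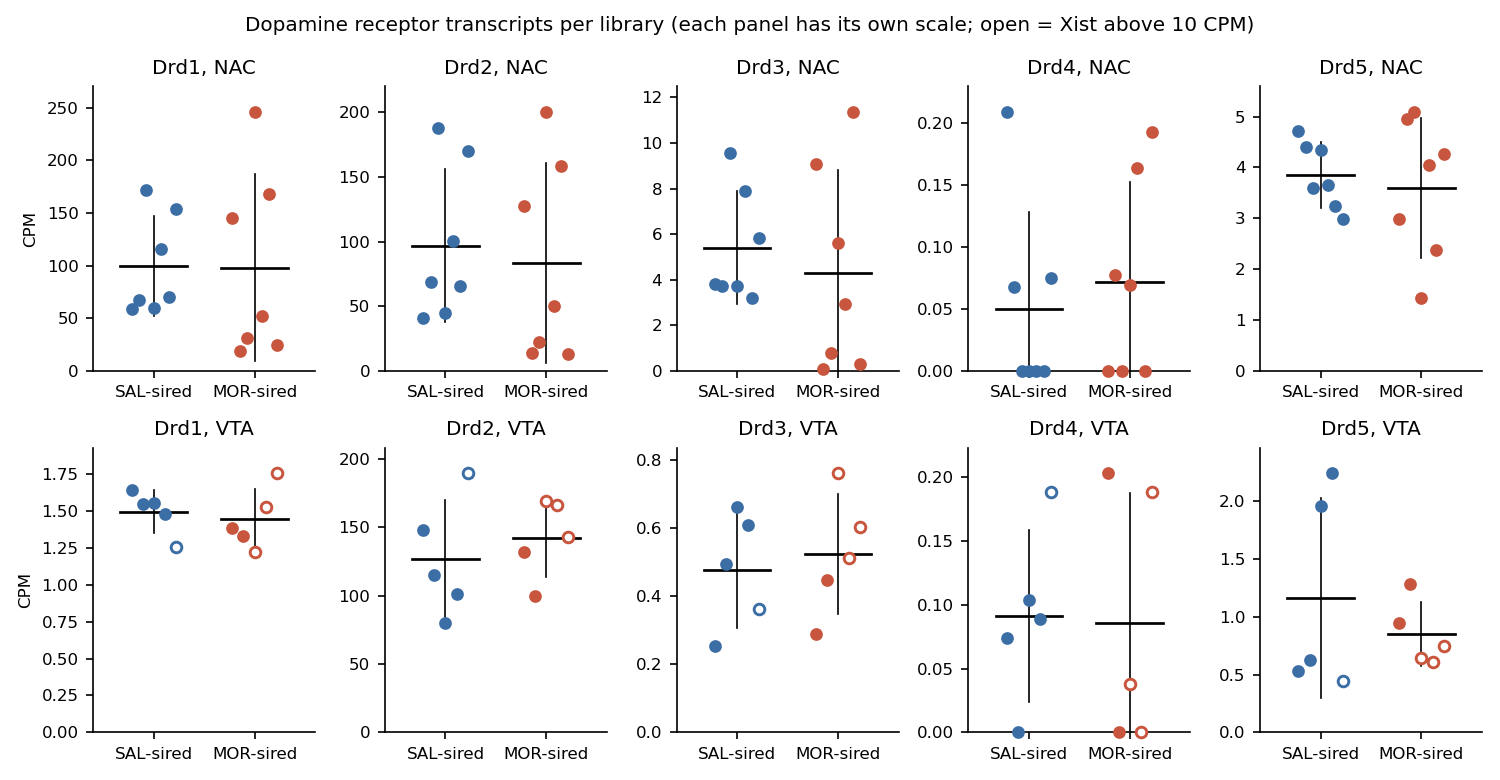
Dopamine receptor transcripts in CPM per library, with 1 panel per receptor and region and a separate linear scale in each. Points are libraries, horizontal bars group means, vertical lines the SD (ending at 0 where it would go below), and open points the 4 VTA libraries with Xist. The SAL-sired and MOR-sired points overlap in all 10 panels.

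Drd1, the main stimulatory receptor of direct pathway neurons, ran in SAL-sired NAC from 58.6 to 172 CPM with a median of 70.5 CPM. In MOR-sired NAC it ran from 18.6 to 246 CPM with a median of 52.6 CPM. The MOR-sired libraries thus held both the lowest and the highest NAC value, and enclosed the whole SAL-sired range. In SAL-sired VTA, Drd1 was 1.64, 1.54, 1.55, 1.48 and 1.26 CPM in replicates 1 to 5. In MOR-sired VTA it was 1.38, 1.33, 1.22, 1.52 and 1.75 CPM. All 10 VTA values lay within a narrow band, far below the lowest NAC library.

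Drd5, the other D1-like receptor, is known in cortical neurons and in striatal cholinergic interneurons. It ran from 2.99 to 4.71 CPM in SAL-sired NAC (median 3.66) and, among MOR-sired NAC libraries, from 1.43 to 5.09 CPM (median 4.04). The highest value over the lowest was 3.55 over all 14 NAC libraries, against 13.3 for Drd1. In SAL-sired VTA, Drd5 was 0.534, 0.626, 1.96, 2.24 and 0.443 CPM, and in MOR-sired VTA 0.949, 1.28, 0.647, 0.612 and 0.751 CPM. SAL-sired VTA 3 and 4 stood above the other 8 libraries. The 4 libraries with Xist had 0.443 to 0.751 CPM.

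Drd2, the D2-like receptor of indirect pathway neurons and the autoreceptor of dopamine neurons, ran in SAL-sired NAC from 40.9 to 188 CPM with a median of 68.5 CPM. In MOR-sired NAC it ran from 13.1 to 200 CPM with a median of 49.9 CPM. In SAL-sired VTA it was 148, 115, 80.2, 101 and 189 CPM in replicates 1 to 5, and in MOR-sired VTA 132, 99.9, 169, 166 and 143 CPM. The regions overlapped, as 8 of 14 NAC libraries lay below the lowest VTA library and 6 above it. The coefficient of variation was 73.9% in NAC and 26.1% in VTA.

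Drd3, a D2-like receptor known for its concentration in the ventral striatum, ran from 3.19 to 9.57 CPM in SAL-sired NAC (median 3.84). In MOR-sired NAC it ran from 0.0664 to 11.4 CPM (median 2.96). MOR-sired NAC 2, 3 and 7, at 0.0664, 0.768 and 0.306 CPM, were the 3 lowest libraries, and the same 3 were the lowest for Drd1 and Drd2. At the upper end the order parted. MOR-sired NAC 4 ranked 1 of 14 for Drd1 and for Drd2 but 6 of 14 for Drd3, at 5.60 CPM, while MOR-sired NAC 6 ranked 1 for Drd3. In VTA, Drd3 ran from 0.254 to 0.664 CPM among SAL-sired libraries and from 0.289 to 0.762 CPM among MOR-sired ones.

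Drd4, the least abundant D2-like receptor here, was listed at 0 in 7 of 14 NAC and 3 of 10 VTA libraries. Its highest value was 0.209 CPM, and the values above 0 were 1.66 to 7.59 estimated counts. It did not pass the filter on low counts in any comparison. In NAC the mean log2(CPM + 1) of Drd4 was 0.07 for SAL-sired and 0.10 for MOR-sired libraries (exact permutation test, two-sided p = 0.649), and 0.12 and 0.11 in VTA (exact permutation p = 0.952). No direction can be read from values this low.

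The order of levels followed. In NAC, Drd1 exceeded Drd2 in 11 of 14 libraries, and the ratio of Drd1 to Drd2 ran from 0.902 to 1.87, so these neighbours were close. Drd3 exceeded Drd5 in 6 of 14 NAC libraries, so neither stood consistently above the other. In VTA, Drd1 exceeded Drd5 in 8 of 10 libraries and Drd5 exceeded Drd3 in 9 of 10. Of the summed receptor transcripts in NAC, Drd1 made up 50.7% ± 3.44 and Drd2 43.03% ± 5.79 (SD, n = 14). In VTA, Drd2 made up 97.5% ± 1.25 of the sum and Drd1 1.14% ± 0.349 (SD, n = 10).

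The sum itself ran from 37.2 to 453 CPM in NAC and from 84.5 to 192 CPM in VTA. The makeup of the sum shifted in the poorest NAC punches. Drd5 was 13.4% of the sum in MOR-sired NAC 2 and 0.316% in MOR-sired NAC 4, the libraries with the smallest and largest sums. Within the D1-like class, Drd5 rose to 21.1% in the first and was 0.579% in the second. In VTA, where Drd1 is low, Drd5 was 24.6% to 60.2% of D1-like transcripts in SAL-sired libraries.

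**Figure D2:**
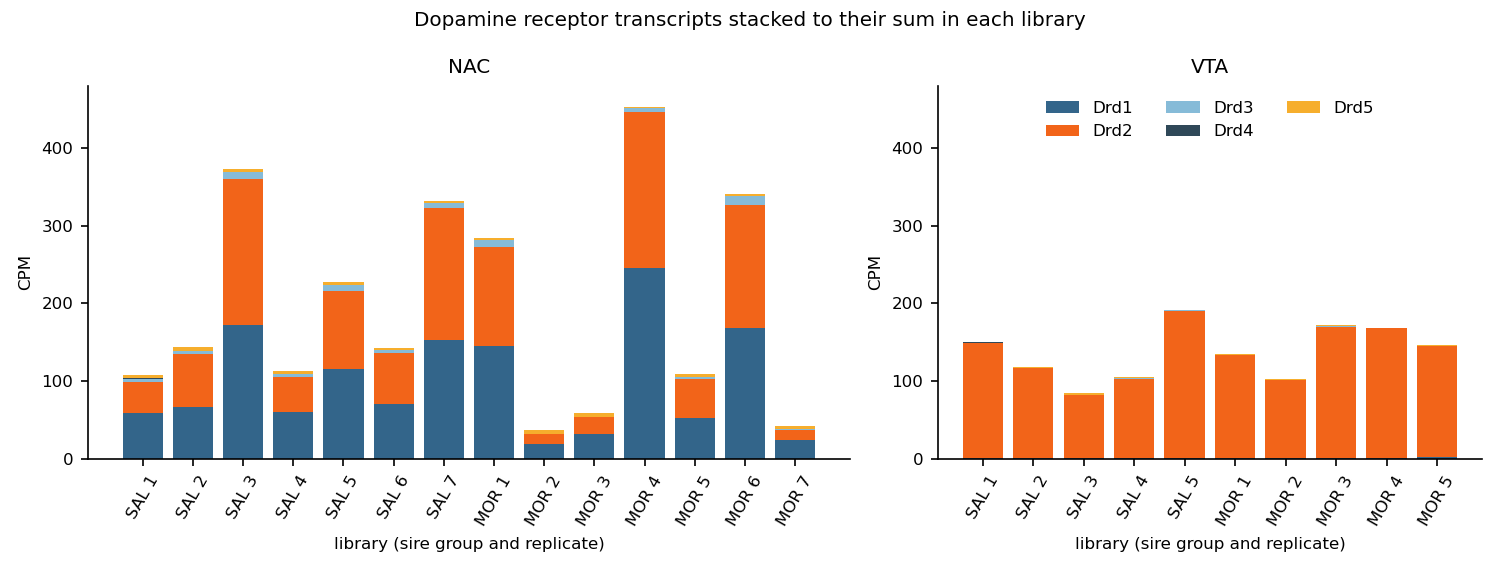
Stacked bars of the 5 receptor transcripts in CPM in each library, by sire group and replicate, NAC on the left and VTA on the right on the same linear scale from 0. NAC bars are mostly Drd1 and Drd2 in near-equal parts and run from 37.2 to 453 CPM, while VTA bars are almost wholly Drd2.

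VTA was then set against NAC in 1 fit of all 24 libraries. Region and deposited table cannot be told apart here. At an adjusted p under 0.05 by edgeR's quasi-likelihood test with Benjamini-Hochberg adjustment, 34.3% of the 20603 genes tested were higher in VTA and 34.7% were higher in NAC. With upper-quartile scaling the split moved from 7070 higher and 7152 lower to 8713 higher and 5744 lower, with a shift of 0.12 in the median log2 fold change of all genes. Of the 4 receptors tested, 3 were lower in VTA and none was higher.

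Drd1 was lower in VTA by a log2 fold change of -6.10 (SE 0.47), which is 0.0146 of the NAC level (95% interval 0.00739 to 0.0287, edgeR adjusted p = 7.76e-11). No VTA library reached the lowest NAC library. Drd3 was lower by -3.29 (SE 0.56), or 0.102 of the NAC level (0.0459 to 0.227, edgeR adjusted p = 1.59e-05), with 2 of 14 NAC libraries below the highest VTA library. Drd5 was lower by -1.94 (SE 0.28), or 0.260 of the NAC level (0.174 to 0.390, edgeR adjusted p = 1.95e-06), with 1 of 14 NAC libraries below the highest VTA library. All 3 calls held without the 4 libraries with Xist, at log2 fold changes of -6.10, -3.46 and -1.62.

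Drd2 was not called between regions. Its fold of VTA over NAC was 1.47 (95% interval 0.836 to 2.58, log2 0.55, SE 0.39, edgeR adjusted p = 0.217). That interval includes equal levels of the autoreceptor transcript of VTA punches and the postsynaptic receptor transcript of NAC punches, and it also includes a difference of 2-fold. The log2 value was 0.31 in SAL-sired libraries alone (edgeR adjusted p = 0.512), 0.80 in MOR-sired libraries alone (edgeR adjusted p = 0.308) and 0.32 without the libraries with Xist (edgeR adjusted p = 0.619). The call depended on the fit: limma-voom with sample quality weights gave 1.24 (adjusted p = 0.00290).

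Genes downstream of the receptors were described by lists for which no test was made. Over all 20603 genes tested, 34.3% were called higher in VTA and 34.7% lower. Gng7, Gnal, Pde10a, Rgs9 and Ppp1r1b, named below, are also on the medium spiny neuron marker list. Among G protein subunits, 2 of 16 were called higher in VTA and 8 lower, with a median log2 fold change of -0.15 against 0.02 over all genes tested. Gng7, the gamma subunit that partners the stimulatory G protein of medium spiny neurons, was lower by -4.61 (SE 0.45), and Gnal, which encodes the striatal stimulatory alpha subunit, by -1.04 (SE 0.30). Gnai3 and Gnai1, inhibitory alpha subunits through which D2-like receptors signal, were higher in VTA by 0.20 (SE 0.05) and 0.25 (SE 0.07). Of 14 cyclases and phosphodiesterases, 1 was called higher and 10 lower. Pde10a, a striatal phosphodiesterase, was at -3.70 (SE 0.41) and Pde7b at -3.13 (SE 0.32), while the calcium-stimulated cyclase Adcy8 was at 0.81 (SE 0.16).

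Of 21 regulators of receptor signalling, 2 were called higher in VTA and 13 lower. Rgs9, which speeds the shut-off of inhibitory G proteins in striatum, was at -4.17 (SE 0.51). The receptor kinase Grk4 was at 0.46 (SE 0.08) and Caly, which encodes the vesicle protein calcyon, at 0.42 (SE 0.09). Of 22 effectors, 6 were called higher and 15 lower. Ppp1r1b, which encodes the protein phosphatase inhibitor DARPP-32, was at -4.31 (SE 0.45). The inwardly rectifying potassium channel subunits named by size of change were split. Kcnj3 was at -2.09 (SE 0.24), Kcnj6 at 1.09 (SE 0.24) and Kcnj5 at 1.48 (SE 0.09). Kcnj9 is on the list as well, and its value is not given here. Kcnj6 is the subunit best known in dopamine neurons. Without the libraries with Xist the counts higher and lower were 2 and 8, 1 and 10, 2 and 12, and 5 and 15, in the same order of lists. The share over all genes in that fit is not given here.

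The question of the study was whether the father's drug exposure altered these transcripts in the offspring. No receptor passed the test in either region. In NAC, 0% of 18220 genes were called at an adjusted p under 0.05 by edgeR's quasi-likelihood test, and 6.18% had an unadjusted p under 0.05. In VTA the shares were 0% of 19923 genes and 5.31%. DESeq2 called 4 genes in NAC and 30 in VTA, and limma-voom called 52 and 0, none of them a dopamine receptor.

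In NAC the fold of MOR-sired over SAL-sired was 0.968 for Drd1 (95% interval 0.431 to 2.17), 0.847 for Drd2 (0.338 to 2.13), 0.782 for Drd3 (0.265 to 2.31) and 0.925 for Drd5 (0.645 to 1.33). Each had an edgeR adjusted p of 0.9998. These intervals include a change of 2-fold or more in both directions for Drd1, Drd2 and Drd3, and do not show that the groups are alike. For Drd1 the SAL-sired mean was 99.6 ± 47.6 CPM and the MOR-sired mean 98.1 ± 88.8 CPM (SD, n = 7 each). For Drd2 the means were 96.9 ± 59.4 and 83.5 ± 77.3 CPM, in the same order. The sizes depended on the method: limma-voom with sample quality weights gave log2 fold changes of -0.79 for Drd1, -1.02 for Drd2 and -1.88 for Drd3 (adjusted p 0.632, 0.605 and 0.508), against -0.05, -0.24 and -0.36 by edgeR. None was called by either. With the medium spiny neuron score (a mean over that marker list) as a covariate, the Drd1 log2 fold change was -0.0029 with an SE of 0.05, against -0.05 with an SE of 0.54 without it. Under the same covariate Drd2 was at -0.14 (SE 0.09), Drd3 at -0.57 (SE 0.37) and Drd5 at -0.39 (SE 0.14), with edgeR adjusted p of 0.453, 0.482 and 0.231. The sign of Drd1, Drd2 and Drd5 in NAC turned when single libraries were left out: without MOR-sired NAC 2, Drd1 was at 0.14, without SAL-sired NAC 3, Drd2 was at 0.0014, and without MOR-sired NAC 4, Drd5 was at 0.02.

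In VTA the fold of MOR-sired over SAL-sired was 1.03 for Drd1 (95% interval 0.837 to 1.27), 1.18 for Drd2 (0.838 to 1.66), 1.19 for Drd3 (0.740 to 1.91) and 0.775 for Drd5 (0.363 to 1.66). The Drd2 means were 127 ± 42.7 and 142 ± 28.3 CPM (SD, n = 5 each), with an edgeR adjusted p of 0.985. The interval for Drd1 was the narrowest of the 8, and excludes a change of 1.5-fold in either direction. The libraries with Xist were 1 of 5 SAL-sired and 3 of 5 MOR-sired. Without them the log2 fold changes were -0.03 for Drd1, 0.21 for Drd2, -0.22 for Drd3 and -0.09 for Drd5, against 0.04, 0.24, 0.25 and -0.37 with them. With Xist as a covariate, an alternative chosen after seeing the data, Drd2 was at 0.05 (SE 0.18) and Drd5 at 0.14 (SE 0.48). Without SAL-sired VTA 4 alone, Drd5 was at 0.04.

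Markers of other cell types were summed in the VTA punches as well. Serotonin neuron markers summed to 11.8 to 106 CPM among SAL-sired libraries and 114 to 284 CPM among MOR-sired ones. All 6 markers averaged at least 1 CPM in both groups, though not in every library. Tph2, the neuronal enzyme of serotonin synthesis, was 23.5 ± 25.9 and 115 ± 43.5 CPM (SD, n = 5 each). None of the 6 was called and 5 had an unadjusted edgeR p under 0.05. Without the libraries with Xist the serotonin sums were 11.8 to 106 CPM in 4 SAL-sired and 258 to 284 CPM in 2 MOR-sired libraries, and Tph2 was 0.330 to 56.1 and 140 to 156 CPM. The dopamine neuron markers summed to 4176 to 9247 CPM among SAL-sired libraries and 4818 to 8417 CPM among MOR-sired ones, and overlapped. With the Xist libraries left out, these ranges were 4176 to 7879 and 4818 to 6608 CPM. Other lists had a direction as well, and no gene was called. Midbrain GABA neuron markers were above 0 in 7 of 8 (median log2 fold change 0.39), 3 with an unadjusted edgeR p under 0.05. Cortical and subcortical glutamatergic neuron markers were below 0 in 5 of 6 and 4 of 6 (medians -1.28 and -0.46), 2 each with such a p. All 8 oligodendrocyte markers were above 0, 2 with such a p. Without the libraries with Xist, 6, 1, 3 and 5 had such a p, in that order. The part of these lists in the receptor values was not tested beyond the dopamine neuron score as a covariate. Under that covariate Drd2 was at 0.16 (SE 0.08, edgeR adjusted p = 0.952).

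**Figure D3:**
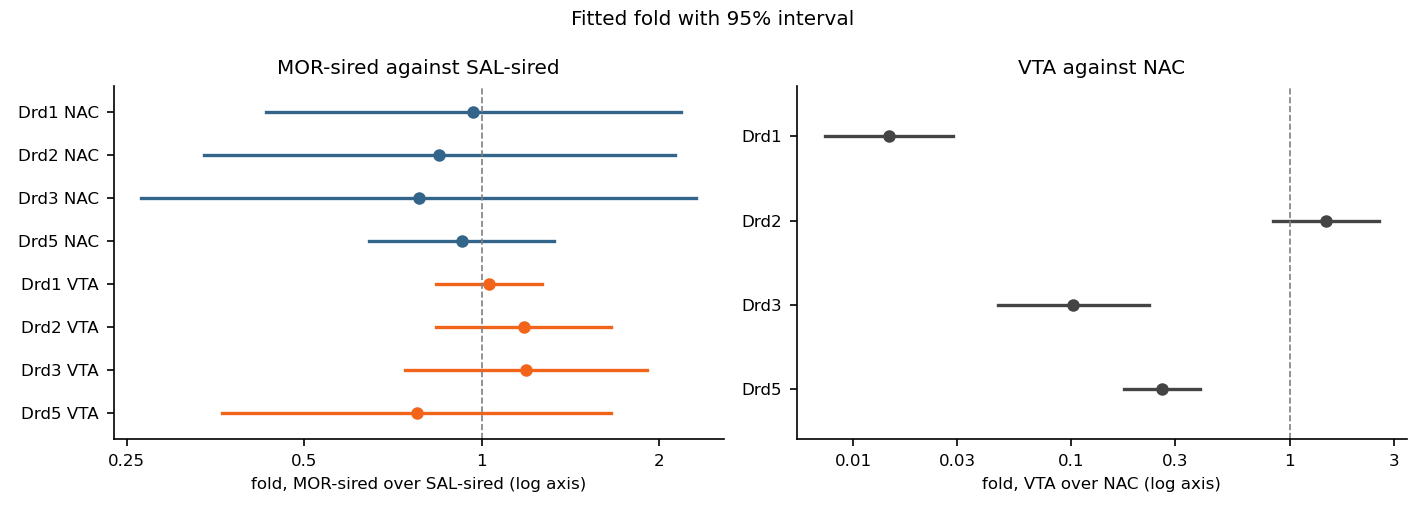
Fitted folds with 95% intervals on log axes for the 4 receptors that passed the filter on low counts, MOR-sired over SAL-sired in each region on the left and VTA over NAC on the right. All 8 intervals on the left cross 1, and on the right the Drd2 interval (0.836 to 2.58) alone does.

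The sire effect was also compared between regions. The difference (VTA minus NAC, log2) was 0.11 for Drd1 (SE 0.82), 0.49 for Drd2 (SE 0.79), 0.62 for Drd3 (SE 1.00) and -0.22 for Drd5 (SE 0.53), none called, among 0% of 20603 genes called by edgeR and 4.78% with an unadjusted p under 0.05. DESeq2 called 83 genes and limma-voom 0, with no receptor among them. With limma-voom the differences were 0.87, 1.31 and 2.21 for Drd1, Drd2 and Drd3, and without the libraries with Xist they were 0.03, 0.46 and 0.15 by edgeR. An opposite sire effect on the autoreceptor and the postsynaptic receptor was therefore not detected.

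Among the downstream lists, no gene was called in either sire comparison. In NAC all 16 G protein subunits had a log2 fold change below 0, with a median of -0.05 against -0.0011 over all genes, and none had an unadjusted p under 0.05. Gnb4, a beta subunit, had the smallest p of them, at -0.21 (SE 0.10, edgeR adjusted p = 0.809). The medians were also -0.06 for the 14 cyclases and phosphodiesterases, -0.05 for 20 regulators and -0.06 for 22 effectors. Marker lists of several cell types were below 0 as well, namely 16 of 17 medium spiny neuron markers (median -0.10), all 8 astrocyte markers (median -0.08), all 8 endothelial and mural markers (median -0.12) and 7 of 8 microglia markers (median -0.12), none called, while 7 of 8 oligodendrocyte markers were above 0. Of the endothelial and mural markers 3 had an unadjusted p under 0.05, and 2 each of the astrocyte and microglia markers. The part of these markers in the downstream lists was not tested. The kinase Gsk3b, which acts in arrestin-dependent D2 signalling, was at -0.15 (SE 0.07, edgeR adjusted p = 0.777). Grk5, a receptor kinase, was at -0.14 (SE 0.07) in NAC and -0.16 (SE 0.08) in VTA.

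In VTA the stimulatory alpha subunit Gnas was at 0.21 (SE 0.07, edgeR adjusted p = 0.886), and 11 of 16 G protein subunits were above 0. The median was 0.04 for that list, -0.04 for cyclases and phosphodiesterases, -0.05 for regulators and -0.03 for effectors, against -0.0065 over all genes. Ncs1, a calcium sensor that binds the D2 receptor and limits its desensitisation, was at -0.16 (SE 0.06, edgeR adjusted p = 0.907). The kinase Mapk3 was at 0.17 (SE 0.07, edgeR adjusted p = 0.928). Each downstream list had at most 1 gene with an unadjusted p under 0.05 in either region. Without the libraries with Xist, Gnas was at 0.25 (SE 0.10), Ncs1 at -0.23 (SE 0.09), Mapk3 at 0.16 (SE 0.07) and Grk5 at -0.11 (SE 0.11), with edgeR adjusted p of 0.753, 0.753, 0.778 and 0.908. The list medians were then 0.04, -0.08, -0.07 and -0.06 in the order given, against -0.014 over all genes. The genes with an unadjusted p under 0.05 were 1 of 16, 3 of 14, 2 of 21 and 1 of 22, beside 6.58% of all 20118 genes tested.

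Because punches differ in content, Drd1, Drd2 and Drd3 in NAC and Drd2 in VTA were divided by transcripts of neurons known to carry them. For Drd3 the partner, Ppp1r1b, is a marker of medium spiny neurons in general. Drd4 and Drd5 were not divided. In NAC, Drd1 was 41.4 ± 4.04 per 100 Tac1 (the direct pathway peptide precursor) in SAL-sired and 38.4 ± 4.97 in MOR-sired libraries (SD, n = 7 each, exact permutation p = 0.233). Drd1 itself varied 13.3-fold across those libraries, and this ratio 1.58-fold. Drd2 per 100 Adora2a (the adenosine receptor of indirect pathway neurons) was 66.6 ± 2.56 in the SAL-sired group and 112 ± 101 in the MOR-sired group (exact permutation p = 0.182). The SAL-sired values ran from 63.0 to 70.8. MOR-sired NAC 2 held 339, with Drd2 at 13.5 CPM and Adora2a at 3.98 CPM, and MOR-sired NAC 3 held 106. The remaining 5 MOR-sired libraries lay between 59.8 and 78.3.

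Drd3 per 100 Ppp1r1b was 0.459 ± 0.128 in the SAL-sired group and 0.293 ± 0.197 in the MOR-sired group (exact permutation p = 0.0723). It ranged 15.3-fold, the least steady of the 5 ratios. Its lowest values, 0.0416 in MOR-sired NAC 2 and 0.109 in MOR-sired NAC 7, rest on 1.64 and 7.80 estimated counts of Drd3. In VTA, Drd2 per 100 Th (tyrosine hydroxylase, the rate-limiting enzyme of dopamine synthesis) was 6.52 ± 0.200 among SAL-sired and 6.29 ± 0.566 among MOR-sired libraries (SD, n = 5 each, exact permutation p = 0.413). Drd2 per 100 Slc6a3 (the dopamine transporter) was 8.66 ± 0.383 and 9.18 ± 0.663 (exact permutation p = 0.190). Over all 10 VTA libraries the ratio of Drd2 to Th ran from 5.64 to 7.15 per 100, a range of 1.27-fold, while Drd2 alone ranged 2.36-fold. In the VTA libraries without Xist, Drd2 per 100 Th averaged 6.50 in 4 SAL-sired and 6.71 in 2 MOR-sired libraries (exact permutation p = 0.600), so the direction turned. Drd2 per 100 Slc6a3 averaged 8.59 and 9.23 in the same libraries (exact permutation p = 0.200), and the smallest p that 4 against 2 can give is 0.0667. Over the 5 ratios, all libraries included, the adjusted p-values of these two-sided exact permutation tests were 0.291 to 0.413. The smallest p such a test can give is 0.000583 for 7 against 7 and 0.00794 for 5 against 5.

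Across the 14 NAC libraries, Drd1 and Drd2 moved as one. On log2(CPM + 1), Pearson's r was 0.987 (Spearman's rho 0.974), and 0.979 within SAL-sired and 0.992 within MOR-sired libraries. The p of r was 1e-05 in 100000 permutations, the smallest they can give, in a family of 12 relations whose smallest adjusted p was 1.71e-05. Leaving out the libraries with Drd2 farthest from its median (MOR-sired NAC 7 and MOR-sired NAC 2), r was 0.981. Drd2 followed Adora2a (r = 0.967, rho 0.982), Drd1 followed Tac1 (r = 0.989, rho 0.974) and Drd3 followed Ppp1r1b (r = 0.928, rho 0.842). Each of these had a permutation p of r of 1e-05 and an r of at least 0.947 without the 2 libraries farthest from the median. High r was not confined to these pairs. On log2(TMM CPM + 1), r was 0.972 for Drd1 with Adora2a and 0.963 for Drd2 with Tac1. On that scale it was 0.967 for Drd2 with Adora2a and 0.988 for Drd1 with Tac1. All values of a library share its total, so abundances are relative to each other.

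Drd5 ran against this order. It rose with Slc17a7, which loads glutamate into the vesicles of cortical neurons, with r = 0.922 and rho 0.908 (permutation p 1e-05 and 3e-05). Drd1 fell with Slc17a7 (r = -0.789, rho -0.982), as did Drd2 (r = -0.731, rho -0.952), with permutation p of r of 3e-05 and 0.00056. MOR-sired NAC 4, with Slc17a7 at 111 CPM against 567 to 1366 CPM in the others, had the highest Drd1 and the lowest Drd5. Without it and MOR-sired NAC 6, r was 0.807 for Drd5, -0.916 for Drd1 and -0.907 for Drd2. Drd5 was also lower where Chat, the marker enzyme of cholinergic neurons, was higher (r = -0.826, rho -0.793, permutation p 9e-05 and 0.0012, r = -0.754 without MOR-sired NAC 4 and SAL-sired NAC 7). Chat itself rose with Drd1 (r = 0.974) and Drd2 (r = 0.949) on log2(TMM CPM + 1). The level of Drd5 within cholinergic neurons cannot be read from this relation. Drd4 showed no such relation with Slc17a7 (r = 0.224, rho 0.439, permutation p 0.459 and 0.118). Adjusted over the 12 relations, each p of r named in this paragraph other than that of Drd4 was at most 0.000672.

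The labels number the NAC libraries 1 to 14, and within library numbers 1 to 8 and 9 to 14 the relations held their sign. The r of Drd1 with Drd2 was 0.991 and 0.982 in those subsets, that of Drd5 with Slc17a7 0.897 and 0.962, and that of Drd3 with Ppp1r1b 0.984 and 0.902.

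In VTA, Drd2 followed the transcripts of dopamine neurons. Its r with Th was 0.978 (rho 0.976, permutation p 1e-05 and 3e-05) and with Slc6a3 0.974 (rho 0.988, permutation p 1e-05 for both) over 10 libraries. Without the libraries with Xist, in which Th was 2536 to 2881 CPM against 1293 to 2282 CPM in the other 6, r was 0.974 and 0.983. Without the 2 libraries farthest from the median it was 0.969 and 0.942. Drd5 and Slc17a6, the glutamate transporter of subcortical neurons, had r = 0.661 (rho 0.442, permutation p 0.0376 and 0.205, adjusted 0.0411 and 0.205). This rested on SAL-sired VTA 3 and 4, without which r was -0.345. Those libraries had Slc17a6 at 130 and 123 CPM and Drd5 at 1.96 and 2.24 CPM.

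**Figure D4:**
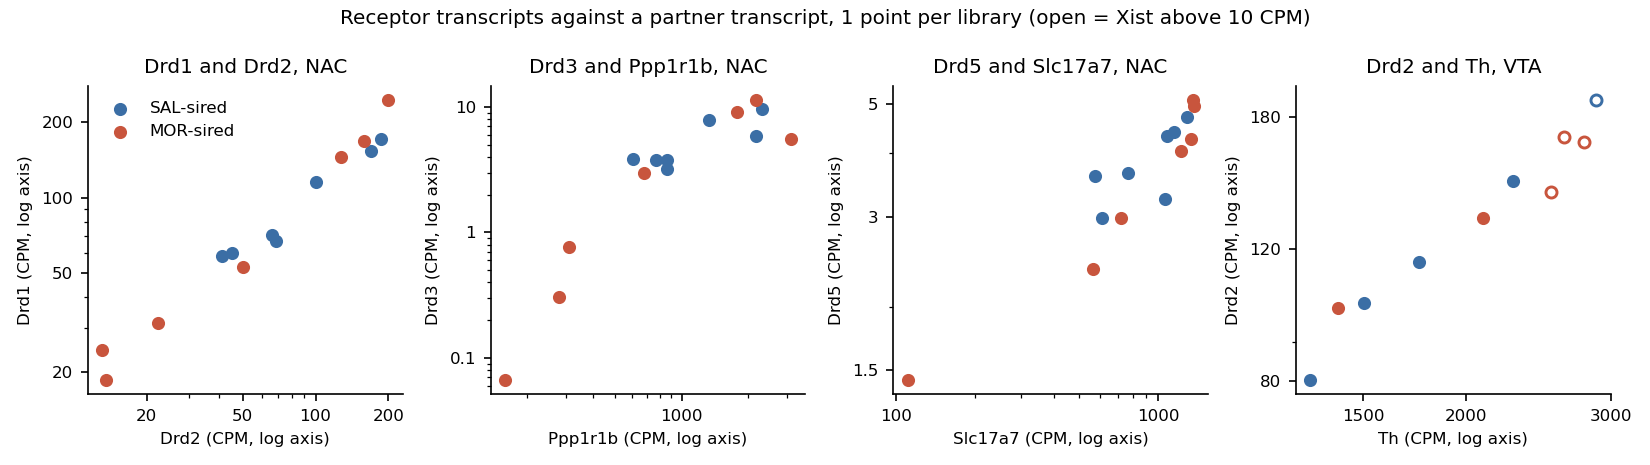
Receptor transcripts against a partner transcript in CPM on log axes, 1 point per library, coloured by sire group. Drd1 with Drd2 and Drd3 with Ppp1r1b climb together in NAC (r = 0.987 and 0.928), Drd5 climbs with Slc17a7 in NAC (r = 0.922), and Drd2 climbs with Th in VTA (r = 0.978), with the 4 libraries with Xist (open) at the upper end.

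The genes whose pattern was most like each receptor were found by Pearson's r on log2(TMM CPM + 1), over 14196 genes in 14 NAC libraries and 14347 genes in 10 VTA libraries. In NAC, the genes most like Drd1 included Gng7 (r = 0.996), Kcnk2, Pdyn and Lypd1. Drd2 was most like P2ry1 (r = 0.993), Rarb, Gng7, Pde10a and Strip2, and Drd1 ranked 24 for it. Drd3 was most like Cartpt, the precursor of the CART peptides (r = 0.969), then Cbr3, Krt75, Rarb and Kremen1. Drd5 was most like Sdc3 (r = 0.983), Hivep3, Mapk10, Dscaml1 and St8sia5.

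In VTA, Drd2 was most like Slc10a4 (r = 0.994), Kcnn3, Ntn1, Dlk1 and Lbh, with Th at rank 12 and Slc6a3 at rank 16. Drd5 was most like Tspan9 (r = 0.950), Ppm1j, Rad51ap1, Smim32 and Grik2, and its r with Drd2 was -0.806, rank 14118 of 14347. Drd1, at 1.47 CPM, was most like Sema6a (r = 0.933), Vezf1, Cabcoco1, Zmynd11 and Prickle3. These ranks are descriptions, and no p was computed.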

How the data were processed

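Estimated counts per gene were deposited by the authors in 1 table per region. Per the submitters' processing notes, Trim Galore, kallisto and DESeq2 were used. The file names call the values kallisto scaledTPM counts. This was read as transcript abundances (TPM) scaled to each library's total and summed per gene, with no scaling between libraries. The build, like the annotation and the strand setting, is not given in the sources used here. Library totals were 21.9 to 41.3 M in NAC and 23.6 to 43.5 M in VTA (1 M being 1e6 counts). Because these counts are scaled estimates they carry no counting interval, and CPM is proportional to TPM. The 37403 identifiers all matched RefSeq symbols of GRCr8, which also gave the windows at gene starts.

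The estimated counts were rounded and tested with edgeR 4.0.16 in R 4.3.3 (filterByExpr, TMM, quasi-likelihood test, Benjamini-Hochberg over all genes kept, two-sided, called at an adjusted p under 0.05). Each region was fitted with an intercept and sire group. All 24 libraries were fitted with 4 group means for the region contrast and the difference of sire effects. The standard error is the log2 fold change over the square root of F. Ratios and Drd4 had exact permutation tests, and correlations 100000 permutations. Scripts were tested on simulated data. Plain CPM is printed unless TMM is named.

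Alternatives were DESeq2 1.42.0, limma-voom (limma 3.58.1) with quality weights, RLE, upper-quartile and total scaling, no filter, a replicate block, marker scores and library number as covariates, leaving out the VTA libraries with Xist, each sire group alone, leaving out each library, the median in place of the mean for ratios, and a pseudocount of 0.1 for Drd4. A Xist covariate, and the VTA ratios, lists and marker sums without the libraries with Xist, were added after seeing the data.

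Named genes were the 5 receptors, their partner transcripts, the 5 genes most like each receptor that averaged at least 1 CPM, and from each of 4 downstream lists the 3 genes of smallest p per sire comparison (in part) and up to 2 of largest change in each direction between regions. Marker lists of 16 cell types were summed, and those that bear on a result are given. One gene that this rule names is not reported here. The members and lists were chosen with earlier results of these data known.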

Additional observations from a re-analysis of the deposited data

Results flagged for a closer look

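Of 30 groups of values tested for a library apart from the rest, 2 held one. Chance gives about 1 in 20 such groups where values are normally distributed and groups independent. That rate need not hold here, as groups share libraries and Drd4 was 0 in 4 of 7 SAL-sired NAC libraries. Drd4 was 0.209 CPM in SAL-sired NAC 1, against 0 to 0.0754 CPM in the other 6 SAL-sired NAC libraries. Drd2 was 339 per 100 Adora2a in MOR-sired NAC 2, against 59.8 to 106 in the other 6 MOR-sired NAC libraries. That library had 3.98 CPM of Adora2a, 0.0664 CPM of Drd3 and 1366 CPM of Slc17a7, the lowest, lowest and highest values of the NAC libraries. The part of the tissue content in either value was not tested.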

How the results depend on the processing

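The region calls of Drd1, Drd3 and Drd5 kept their direction and their side of the threshold under all 10 alternatives and all 24 fits without 1 library. Drd2 between VTA and NAC became a call with limma-voom (1.24) and with the replicate block (1.03, edgeR adjusted p = 0.0480), and the cause was not tested. No receptor was called in any sire comparison under any alternative. The number of genes called went from 0 to 4 in NAC, 30 in VTA and 83 for the difference of sire effects with DESeq2, to 52 in NAC with limma-voom, and to 7 for the difference without the VTA libraries with Xist, the cause not tested.

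Several log2 fold changes near 0 changed sign, and the cause was not tested. In NAC, Drd5 was at 0.016 with library number as covariate. In VTA, Drd5 was at 0.0047 with limma-voom, 0.12 with the dopamine neuron score and 0.14 with Xist as covariate. There, Drd1 was at -0.043 with library totals and -0.034 without the libraries with Xist, where Drd3 was at -0.22. For the difference of sire effects, Drd1 was at -0.0098 with library totals, and Drd5 at 0.13 with the replicate block and 0.026 without the libraries with Xist. The log2 ratio of Drd2 to Th in VTA was 0.044 without the libraries with Xist, against -0.054. Leaving out single libraries gave Drd1 -0.46 to 0.14, Drd2 -0.61 to 0.0014 and Drd5 -0.23 to 0.025 in NAC, Drd1 -0.0100 to 0.11 and Drd5 -0.60 to 0.035 in VTA, and Drd1 -0.074 to 0.53 and Drd5 -0.48 to 0.18 for the difference.

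Sizes also moved with limma-voom and with the replicate block, and the cause was not tested. In NAC, Drd1, Drd2 and Drd3 were at -0.79, -1.02 and -1.88 with limma-voom and at -0.55, -0.74 and -1.33 with the block (edgeR adjusted p = 1.00 for each), against -0.05, -0.24 and -0.36. For the difference of sire effects they were at 0.87, 1.31 and 2.21 with limma-voom and 0.60, 1.03 and 1.66 with the block, against 0.11, 0.49 and 0.62. Without the libraries with Xist the difference for Drd3 was 0.15.

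Same-numbered replicates did not deviate together: their correlations ran from -0.26 to 0.0964 in NAC and from -0.128 to 0.132 in VTA, and 2 of 5 numbers matched best with their own in VTA and 0 of 7 in NAC. The block left 0 genes called in each sire comparison and 13385 between regions. Drd4 could not be fitted after the filter, and without the filter its adjusted p was 0.984 in NAC. The low counts of Drd4, and of Drd3 in VTA and in MOR-sired NAC 2 and 7, limit what could be detected.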
